A study of Rattus norvegicus with 12 samples.

Results

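The large subunit of the cytosolic ribosome joins amino acids into protein, and each of its proteins is encoded by its own nuclear gene. Their messenger RNAs were followed in punches of the left ventricle from adult wild-type Groningen rats. Members were the rows of the deposited gene table whose symbol is Rplp0, Rplp1 or Rplp2, or Rpl with a number and at most 2 letters. The rule took 55 of 32735 rows, which carry 47 different symbols, and no expression value was used in it. Rplp1, Rpl13 and Rpl38 were not analysed here.

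In the study 6 rats, the RSD group, underwent social defeat as intruders with a resident rat on 8 days in a row, and 6 unhandled rats were the control group, CTR. The sources used here do not give when hearts were taken or in which order libraries were made. The comparison asks what repeated social defeat does to the transcripts of the heart. Each library came from 1 rat, from 100 ng of total RNA, and was made with the QuantSeq FWD kit, whose reads come from close to the poly(A) tail, so the number of reads does not grow with transcript length. Punches hold all cells of the ventricle wall, so fewer cells of a type and less RNA per cell cannot be told apart. The series describes males. RSD 40 is labelled female, but its Y-linked Eif2s3y stood at 7.36 CPM, within the 2.49 to 11.02 CPM of the other 11 libraries.

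Ribosomal proteins are needed in largely equal amounts, and their mRNAs are abundant in most cells. Most begin with a run of pyrimidines, the terminal oligopyrimidine (TOP) tract, through which the kinase mTOR and the RNA-binding protein LARP1 control their translation together. In heart and skeletal muscle the core protein Rpl3 has a muscle-specific paralog, Rpl3l.

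Values are CPM (the reads of a gene scaled to the same total in each library) divided by a normalisation factor per library (normalised CPM), and fold changes are RSD over CTR on log2(CPM + 1). Libraries held 2062797 to 3731091 reads, with means of 2974060 in CTR and 2872600 in RSD (exact two-sided permutation p = 0.719, n = 6 per group). Reads from the mitochondrial genome made up 53.6% ± 2.74 in CTR against 54.8% ± 3.08 in RSD (SD, exact permutation p = 0.5), and members made up 0.471% to 0.635% of all reads. All 9 cardiomyocyte markers were tested, and their summed level was 43866 to 50562 CPM in CTR and 41191 to 48379 CPM in RSD. The 3 T cell and 3 B cell markers summed to at most 6.04 and 0.97 CPM. The 7 macrophage markers summed to 84.0 to 149 CPM in CTR and 77.6 to 107 CPM in RSD, and the 5 measured red blood cell markers to 2324 to 14198 CPM and 2206 to 25875 CPM. Fibroblast markers (5 of 6 below 0 in log2 fold change) summed to 702 to 976 and 655 to 899 CPM, and smooth muscle and pericyte markers (4 of 5 below 0, median −0.44) to 70.5 to 108 and 50.4 to 102 CPM. Atrial markers (3 of 3 tested above 0, median 0.51) summed to 91.5 to 240 and 54.6 to 486 CPM. Endothelial markers (3 of 6 below 0, median 0.06) summed to 298 to 386 and 281 to 369 CPM. Below 0 lay 7 of 9 cardiomyocyte markers (median −0.06) and 5 of 7 macrophage markers (median −0.30). Of the red blood cell markers 4 of 5 lay above 0 (median 0.40). The part of cell makeup in the values below was not tested.

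Of the 55 rows, 37 had enough reads to be tested, covering 36 symbols. No member differed between the groups past adjusted p 0.05 over all 7511 genes (limma, Benjamini-Hochberg), where 2 genes, 0.0266% of those tested, did. The smallest adjusted p of a member was 0.432. At an unadjusted limma p under 0.05 there were 10 members, all with lower values in RSD, or 27.0% of those tested. Over all genes 8.36% were at that level, 4.47% lower and 3.89% higher. edgeR and DESeq2 on the recovered reads also called 0 members and gave 11 each at an unadjusted p under 0.05, all lower in RSD. Of all genes, 4.55% were lower at that level in edgeR and 4.51% in DESeq2.

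The median log2 fold change of the 37 tested rows was −0.17, beside 0.00 over all genes, and 29 of the 37 lay below 0, where 49.3% of all genes did. The 95% interval of 18 members spanned less than 0.5 on the log2 scale. Among the members above 100 CPM the intervals together ran from −0.62 to 0.31. These counts moved with single libraries and covariates, and so did the share of all genes that were lower at an unadjusted p under 0.05. The 10 of 37 members became 5 of 37 without CTR 24, where that share was 3.04%, and 15 of 37 without CTR 22, where it was 6.98%. With 1 surrogate variable the median was −0.07 and 5 of 37 members were at that level, beside 2.12% of all genes. With the largest mitochondrial row's share of reads as a covariate the median was −0.05 and 3 of 37 members were, beside 1.58%. That share averaged 19.9% in CTR and 23.2% in RSD, so its part and that of the group cannot be fully told apart. Without CTR 22 the genes past adjusted p 0.05 numbered 41 rather than 2, and 0 of them were members. With all libraries and no covariate, the 21 rows with a mean of at least 100 normalised CPM had a median of −0.11. Of them 3, or 14.3%, were lower at an unadjusted limma p under 0.05. The 16 tested rows under 100 had a median of −0.31, and 7 of them, 43.8%, were lower at that level, beside 4.47% of all genes.

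**Figure D1:**
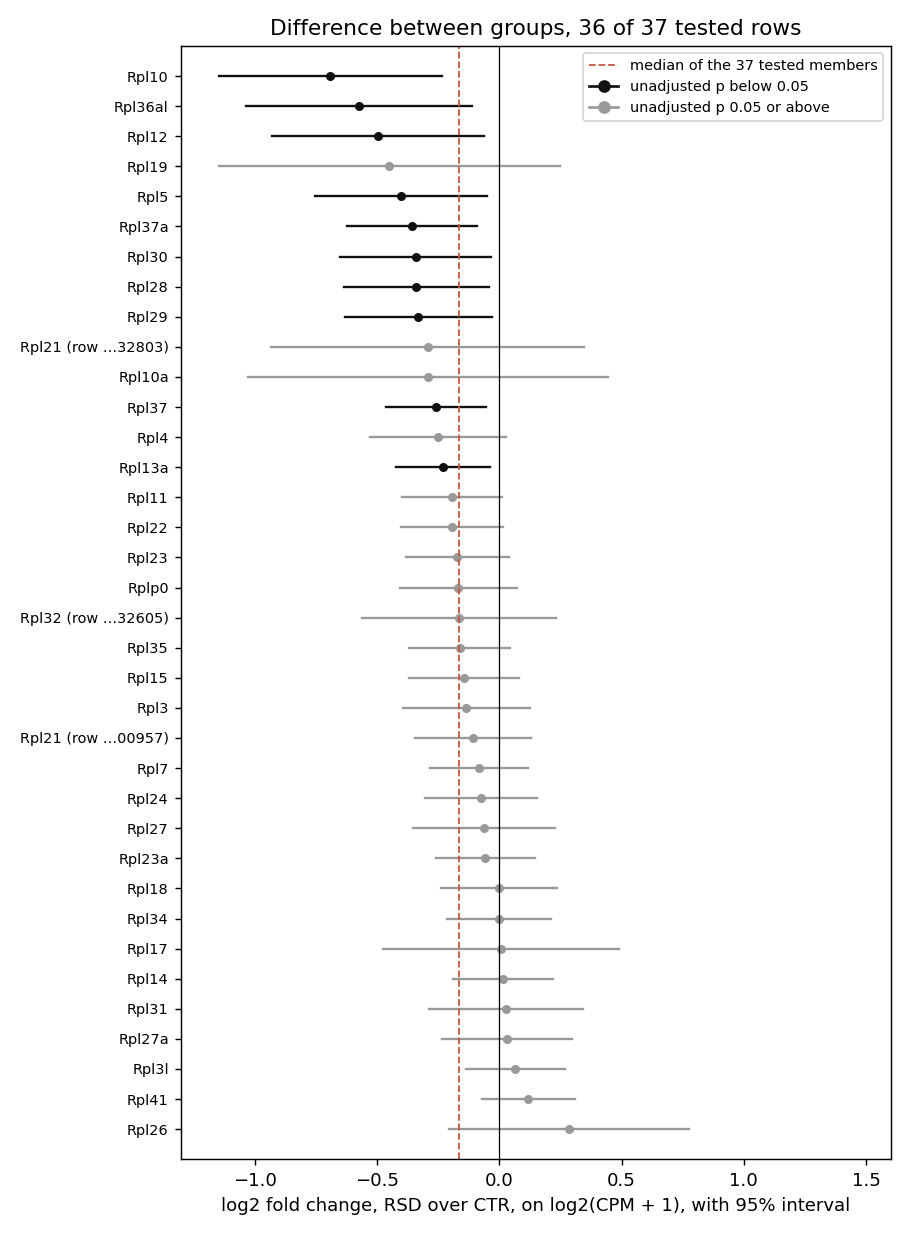
Log2 fold change of 36 of the 37 tested rows, RSD over CTR, on the log2(CPM + 1) scale (x axis), with its 95% interval as a bar, ordered by size; black marks an unadjusted limma p below 0.05 and the dashed line the median of the 37 rows. The 10 black rows all lie left of 0, Rpl10 lies farthest left at −0.69, and no member passed adjusted p 0.05.

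The start of a ribosomal protein mRNA carries its TOP tract, so the sequences around the RefSeq transcription start (build GRCr8) are shown for 7 of the 8 members with the smallest p and for the Rpl3 and Rpl3l pair, and Rpl36al is named only. Each has 25 bases before the start and 25 from it, and capitals mark a tract, defined as C followed by at least 4 further C or T on the transcribed strand, beginning between 5 bases before the start and base 6 from it. The sites are chrX:157205825-157205874, plus strand, for Rpl10, chr9:81748066-81748115, plus, for Rpl37a, chr2:55942920-55942969, plus, for Rpl37, and chr3:36661915-36661964, plus, for Rpl12. They are chr1:78083508-78083557, minus, for Rpl28, chr1:104748889-104748938, minus, for Rpl13a, chr14:1995201-1995250, minus, for Rpl5, chr7:113507966-113508015, minus, for Rpl3, and chr10:14258421-14258470, plus, for Rpl3l.
Rpl10: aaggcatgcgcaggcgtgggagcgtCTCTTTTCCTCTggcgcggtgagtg
Rpl37a: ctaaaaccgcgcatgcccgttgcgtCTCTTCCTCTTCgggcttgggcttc
Rpl37: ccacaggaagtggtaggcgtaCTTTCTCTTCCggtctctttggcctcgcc
Rpl12: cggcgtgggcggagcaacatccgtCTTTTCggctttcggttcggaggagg
Rpl28: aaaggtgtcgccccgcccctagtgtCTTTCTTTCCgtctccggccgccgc
Rpl13a: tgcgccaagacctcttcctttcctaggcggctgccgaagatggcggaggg
Rpl5: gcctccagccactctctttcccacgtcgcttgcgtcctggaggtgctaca
Rpl3: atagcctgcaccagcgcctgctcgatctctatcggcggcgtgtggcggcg
Rpl3l: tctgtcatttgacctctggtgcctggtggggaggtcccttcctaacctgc

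Of the 36 tested symbols 28 had such a sequence, and 18 of those, 64.3%, held a tract, against 17.0% of 33469 RefSeq starts and 9 of 15 tested small-subunit symbols with a sequence. Of the sequences shown, those of Rpl10, Rpl37a and Rpl28 had the tract exactly at the annotated start. Rpl3l, Rpl3, Rpl13a and Rpl5 held none in the window searched, which depends on where RefSeq places the start. In Rpl13a and Rpl5 a run of C and T begins upstream of that window. Among members with a sequence and 1 row per symbol, the 18 with a tract had a median log2 fold change of −0.22 (14 below 0), and the 9 without had −0.08 (6 below 0). The difference between these medians was not tested, and the split depends on where RefSeq places each start.

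Among tested rows the mean deposited CPM over the 12 libraries spanned from 4.03 (a second row of Rpl21) to 602 (Rpl41). Rpl41 encodes the shortest protein of the ribosome. Its level was 575 ± 67.1 normalised CPM in the controls against 622 ± 39.4 after defeat (SD, n = 6 each), with 2 of 6 RSD libraries below the CTR median. Rpl35, which sits at the exit of the peptide tunnel, followed with 459 ± 73.2 and 407 ± 26.4 normalised CPM. Neither the Rpl41 difference (log2 fold change 0.12, SE 0.09) nor that of Rpl35 (−0.16, SE 0.10, or −0.04 with the mitochondrial covariate) passed. In all, 21 tested rows had a mean of at least 100 normalised CPM.

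**Figure D2:**
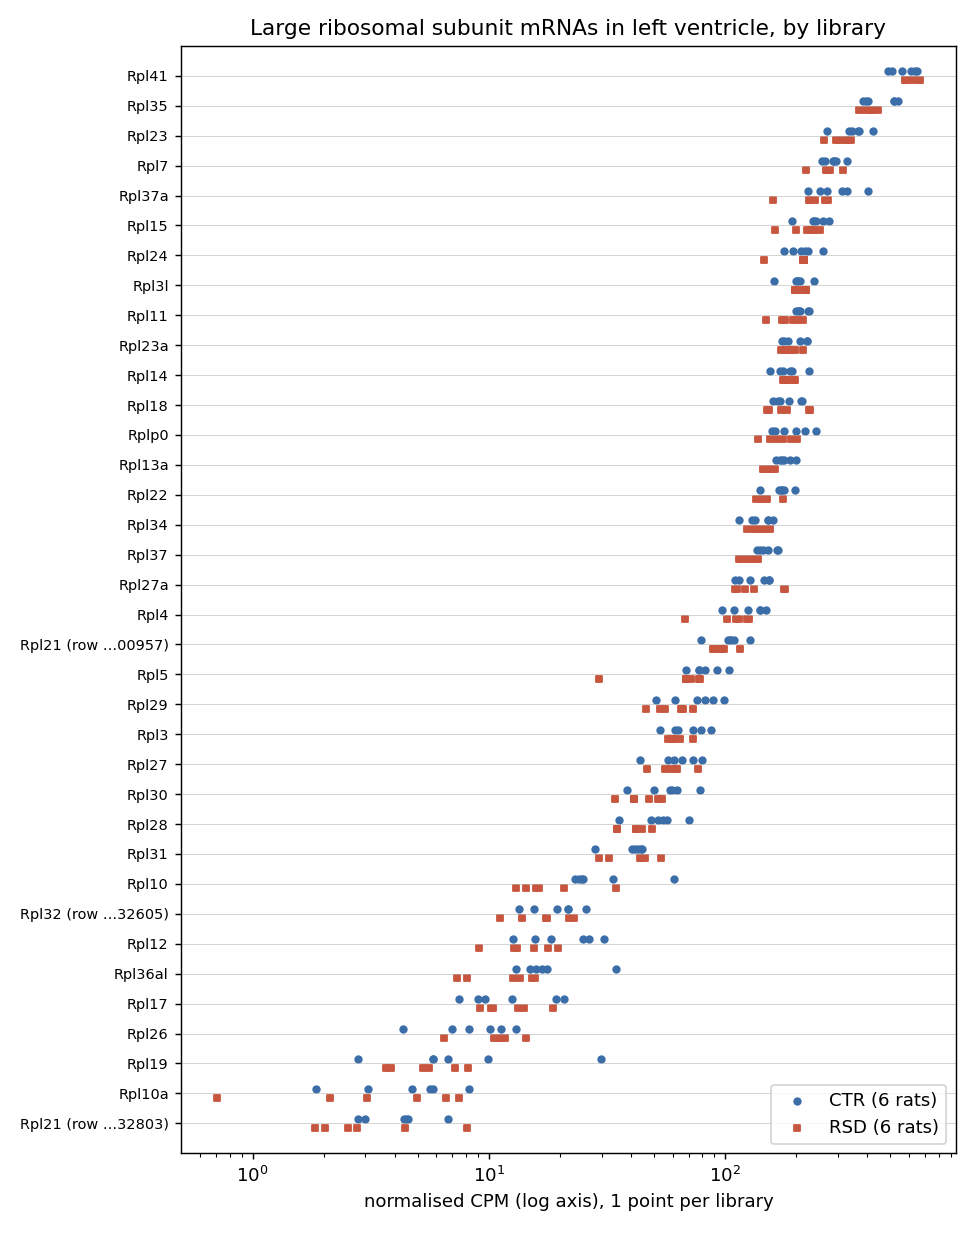
Normalised CPM (x axis, log scale) of 36 of the 37 tested rows in each of the 12 libraries, 1 point per library, CTR as blue circles and RSD as red squares, ordered by mean. The groups overlap in every row shown but Rpl13a, and the points spread most within groups in Rpl19 and Rpl10a.

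Of the 55 rows 18 were not tested, and 7 of these, all among the 12 rows that the authors marked for removal, are listed at 0 in all 12 libraries. They include the rows of Rplp2, Rpl8 and Rpl7a, genes that cells use generally, so the 0 is not read as a level. Rpl9, Rpl6, Rpl39, Rpl36 and Rpl36a had reads but means of only 1.39 to 2.64 CPM, and 11 symbols had no tested row. RefSeq lists copies of most of these genes by name (pseudogenes with -ps symbols and numbered paralogs). There were 5 for Rplp2, 6 for Rpl8, 21 for Rpl7a and 27 for Rpl9, but 0 for Rpl10l and Rpl39l, also not tested. The deposited columns are named as holding unique reads. The median number of named copies was 15 for the 11 symbols not tested, 15 for the 15 tested under 100 CPM and 9 for the 21 above it. Rpl7 and Rpl23a, with 26 copies each, stood at 286 ± 25.0 and 198 ± 21.8 normalised CPM in the controls. Whether reads were lost to or gained from copies was not tested, and levels of single rows are uncertain to that extent.

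In the stalk, the flexible arm that recruits translation factors, Rplp0 and Rpl12 were tested. Rplp0, the base of the stalk (ENSRNOG00000001148), ranged from 157 to 241 normalised CPM in CTR with a median of 189, and from 138 to 202 in RSD with a median of 171. The groups overlap, and the log2 fold change was −0.17 (95% interval −0.41 to 0.07, limma adjusted p = 0.727), or −0.02 with 1 surrogate variable and −0.05 with the mitochondrial share as a covariate. Rpl12, which anchors the stalk on ribosomal RNA (ENSRNOG00000016220), ranged from 12.7 to 30.6 normalised CPM in CTR with a median of 21.7, and from 9.12 to 19.7 in RSD with a median of 14.4. All 6 RSD libraries lay below the CTR median, but 5 of them stayed within the CTR range (log2 fold change −0.50, SE 0.21, limma adjusted p = 0.517, or −0.28 with 1 surrogate variable).

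Rpl5 and Rpl11 bind the 5S ribosomal RNA and, when free of ribosomes, the p53 regulator Mdm2. Rpl5 (ENSRNOG00000023529) ranged from 68.5 to 103 normalised CPM in CTR with a median of 79.8, and from 29.4 to 78.4 in RSD with a median of 70.1. Its lowest value belonged to RSD 33, the shallowest library, while the other 5 RSD libraries lay between 68.2 and 78.4. The log2 fold change was −0.40 (SE 0.17, limma adjusted p = 0.517) and was −0.19 without RSD 33, −0.07 with 1 surrogate variable and −0.13 with the mitochondrial covariate. Rpl11 (ENSRNOG00000026260) stood at 211 ± 11.2 normalised CPM in controls against 186 ± 23.0 after defeat, and 4 defeated rats lay below every control (log2 fold change −0.19, SE 0.10, limma adjusted p = 0.623).

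Rpl10, which joins late at the catalytic centre and completes the subunit, had the lowest fold change of the members. Its row (ENSRNOG00000056765) ranged from 23.2 to 60.9 normalised CPM in CTR with a median of 24.9, and from 12.98 to 34.6 in RSD with a median of 16.1. Of the defeated rats 5 lay below every control, RSD 39 stood above 5 of the 6 controls, and CTR 24 was highest of all. The log2 fold change was −0.69 (SE 0.22, 95% interval −1.15 to −0.23, limma adjusted p = 0.432) and −0.49 without CTR 24. It was −0.87 without RSD 39, −0.61 with 1 surrogate variable and −0.72 with the mitochondrial covariate. Rpl10a, of the L1 stalk that guides the leaving transfer RNA, was at 4.89 ± 2.23 and 4.15 ± 2.64 normalised CPM, on 2 to 27 reads per library (log2 fold change −0.29, SE 0.36). Leaving out 1 library took its fold change from −0.48 (without CTR 22) to −0.01 (without RSD 38).

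Rpl3, which reaches into the catalytic centre, stood at 69.5 ± 12.7 normalised CPM in controls against 62.5 ± 5.81 after defeat (log2 fold change −0.13, SE 0.13, limma adjusted p = 0.809). Its muscle paralog Rpl3l (ENSRNOG00000014641) measured 202 ± 24.6 and 210 ± 10.7 (log2 fold change 0.07, SE 0.10, limma adjusted p = 0.891). Of the reads assigned to either gene, Rpl3l held 70.1% to 77.1% in CTR, with a mean of 74.5% ± 2.50, and 72.8% to 79.3% in RSD, with a mean of 77.1% ± 2.27 (SD, n = 6 each). Its share was above the CTR mean in 5 of 6 RSD libraries, and the difference did not pass (exact two-sided permutation p = 0.0909, adjusted p = 0.175 over 3 pairs). The lowest share belonged to CTR 24, at 70.1% (95% Wilson interval 66.8% to 73.1%, counting error only).

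The groups overlap in the other pairs too. Rpl36al held 87.5% ± 7.20 of the reads of Rpl36al and Rpl36a in controls against 85.1% ± 8.24 after defeat (exact permutation p = 0.589, n = 6 each). Rpl36al itself, a close paralog of Rpl36a, ranged from 13.01 to 34.7 normalised CPM in CTR with a median of 16.3, and from 7.34 to 15.7 in RSD with a median of 13.1. All 6 RSD libraries lay below the CTR median (log2 fold change −0.57, SE 0.23, limma adjusted p = 0.497, or −0.39 without CTR 24). The fold change of Rpl36al was −0.66 without CTR 27, −0.56 with 1 surrogate variable and −0.61 with the mitochondrial covariate. Rpl22l1, a paralog of Rpl22 that is no member, held 13.8% ± 1.54 of the reads of that pair in CTR and 11.8% ± 2.37 in RSD, with 1 of 6 RSD libraries above the CTR mean (exact permutation p = 0.117, adjusted p = 0.175).

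**Figure D3:**
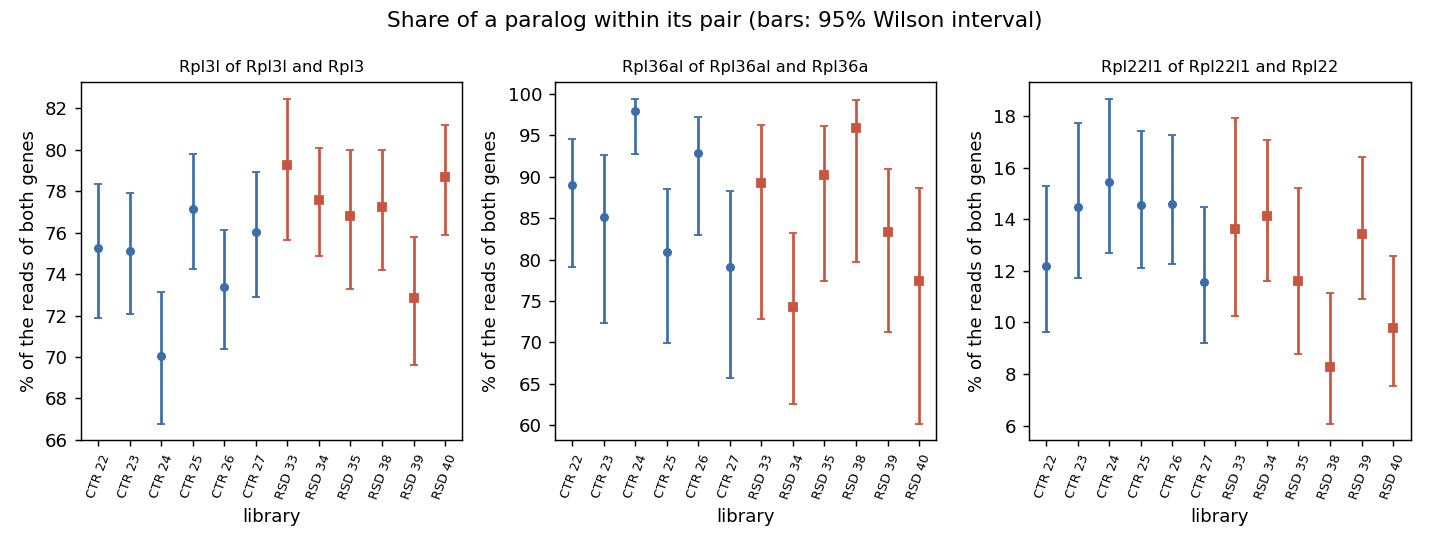
Percent of the reads of both genes (y axis) held by Rpl3l, Rpl36al and Rpl22l1 within their pairs, in each library (x axis), CTR as blue circles and RSD as red squares, with 95% Wilson intervals as bars. The groups overlap in every pair, and Rpl3l holds 70.1% or more of its pair in every library.

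Proteins around the peptide exit tunnel gave 8 tested rows, with a median log2 fold change of −0.11. Of these, 5 lay below 0, beside 49.3% of all genes. At an unadjusted limma p under 0.05 there were 0, beside 4.47% of all genes lower at that level. With only 8 rows, 0 cannot be told apart from that share. Rpl4, which lines the tunnel, was at 127 ± 20.4 and 107 ± 21.1 normalised CPM, with its lowest library, RSD 40, at 67.9. Rpl23a, a docking site for the signal recognition particle, stood at 198 ± 21.8 and 189.7 ± 14.3 normalised CPM, and its log2 fold change was −0.06, with a 95% interval from −0.26 to 0.14. Rpl26 had the highest fold change of the members, 0.28 (SE 0.24), on medians of 9.17 and 11.2 normalised CPM. Rpl19 (log2 fold change −0.45, SE 0.34) was highest in CTR 24, at 29.9 normalised CPM against 2.79 to 9.93 in the other controls, and its log2 fold change was −0.09 without that library and −0.69 without CTR 22. On recovered reads it was −0.84 in edgeR and −0.85 in DESeq2, and limma gave −0.15 with 1 surrogate variable and −0.28 with the mitochondrial covariate.

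The remaining members gave 21 tested rows, 17 of them below 0 and 7 with an unadjusted limma p under 0.05, beside 49.3% and 4.47% lower over all genes. Rpl37a, a small zinc-binding protein (ENSRNOG00000023385), ranged from 224 to 403 normalised CPM in CTR with a median of 291, and from 160 to 273 in RSD with a median of 234. The groups overlap, since 5 of 6 RSD libraries lay within the range of the controls (log2 fold change −0.36, SE 0.13, limma adjusted p = 0.474). Its fold change was −0.09 with 1 surrogate variable and −0.13 with the mitochondrial covariate. Rpl37, a second zinc-binding protein (ENSRNOG00000034180), ranged from 136 to 167 in CTR with a median of 148, and from 114 to 138 in RSD with a median of 126. In RSD 4 of its 6 libraries lay below the lowest control (log2 fold change −0.26, SE 0.10, limma adjusted p = 0.486).

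Rpl13a, known in human cells for leaving the ribosome to silence inflammatory mRNAs, was the 1 member whose groups did not overlap, as 0.293% of all genes did not. It ranged from 164 to 200 normalised CPM in CTR with a median of 176, and from 145 to 162 in RSD with a median of 150 (log2 fold change −0.23, SE 0.09, limma adjusted p = 0.497). The gap was narrow, 162.4 in RSD 35 against 163.7 in CTR 23, and in CPM as deposited the groups overlap (highest RSD library 166, lowest CTR library 163.6). Rpl13a also had the smallest spread within groups, an SD of 0.08 on the log2 scale. Its log2 fold change was −0.28 with 1 surrogate variable and −0.28 with the mitochondrial covariate. Rpl28 (53.0 ± 11.3 and 41.2 ± 5.51 normalised CPM, log2 fold change −0.34, or −0.18 with the mitochondrial covariate), Rpl29 (76.5 ± 17.7 and 59.8 ± 9.89) and Rpl30 (57.8 ± 13.3 and 45.0 ± 7.62) each had all 6 RSD libraries below the CTR median. So had 12 members in all, with 0 on the opposite side, where 8.01% of all genes lay below in this way and 6.62% above.

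**Figure D4:**
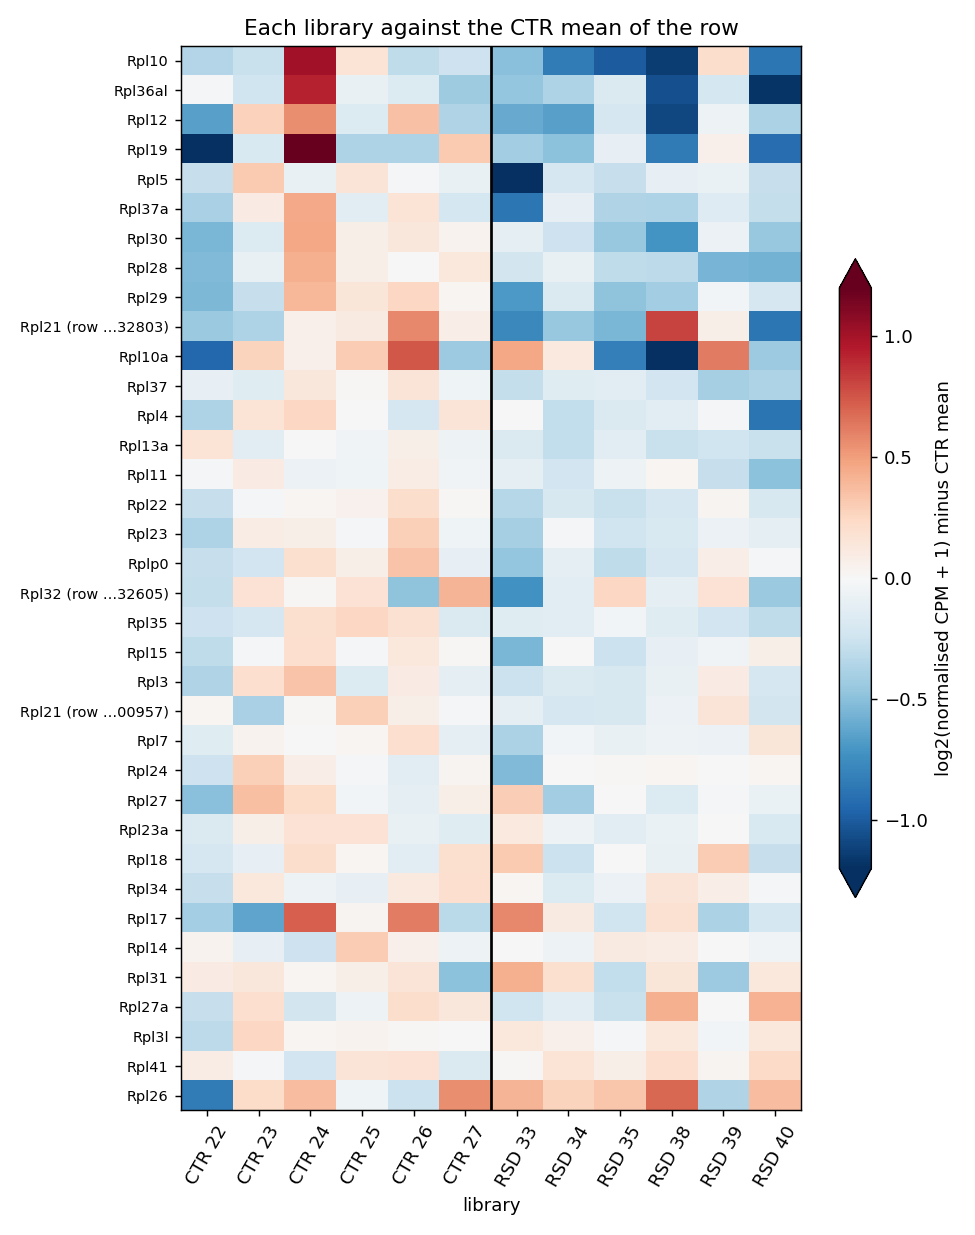
Log2(normalised CPM + 1) of 36 of the 37 tested rows in each library minus the CTR mean of that row (colour scale in log2 units, blue lower, red higher, clipped at its ends), rows ordered by fold change and libraries in columns. CTR 24 is red and CTR 22 blue over many rows, and the RSD columns are mostly blue in the upper rows, with Rpl10 in RSD 39 an exception.

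Members varied in part together within groups. With both groups centred on their means, the median Pearson r over the 666 pairs of tested rows was 0.19 across the 12 libraries, and 70.1% of pairs were above 0. Members share their libraries and scaling, and no such value is given for other genes. These values are therefore a description and do not show that members vary together more than other genes. Rpl3 followed the mean of the other members most closely (r = 0.83), then Rpl30 (0.82) and Rpl29 (0.81), while Rpl13a (−0.41) and Rpl41 (−0.40) went against it. Of the other genes tested, the 5 most like the mean member level were LOC100910370 (r = 0.96), Aprt (0.93), Cox6b1 (0.93), Ppib (0.92) and Pid1 (0.92), over 12 libraries. Picking the highest r over all other genes tested raises such values by itself, so these genes are not read as regulated with the members.

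The mean log2 level of the 37 rows was 6.41 ± 0.18 in CTR and 6.24 ± 0.07 in RSD (SD, n = 6). CTR 22 had the lowest mean of all, 6.10, and CTR 24 the highest, 6.65, and the other 4 controls (6.38 to 6.50) lay above every RSD library (6.16 to 6.37). CTR 24 was the highest of the 12 libraries for 14 of the 37 rows. RSD 33 was the lowest for 10, and CTR 22 and RSD 40 for 8 each. Beside this, the largest mitochondrial row held 24.2% of the reads of CTR 22 and 22.7% of CTR 27, the controls with the lowest member means, against 17.9% to 18.5% of the other 4 controls. In the defeated rats it held 19.4% to 25.7% (group means 19.9% ± 2.80 and 23.2% ± 2.32, exact permutation p = 0.0541, or 0.162 adjusted over 3 measures). RSD 38 had the lowest RSD share and a member mean of 6.22. RSD 39, at 25.3%, had the highest RSD mean, 6.37. With that share as a covariate 22 members lay below 0 rather than 29. Its part in the member levels was not tested otherwise.

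**Figure D5:**
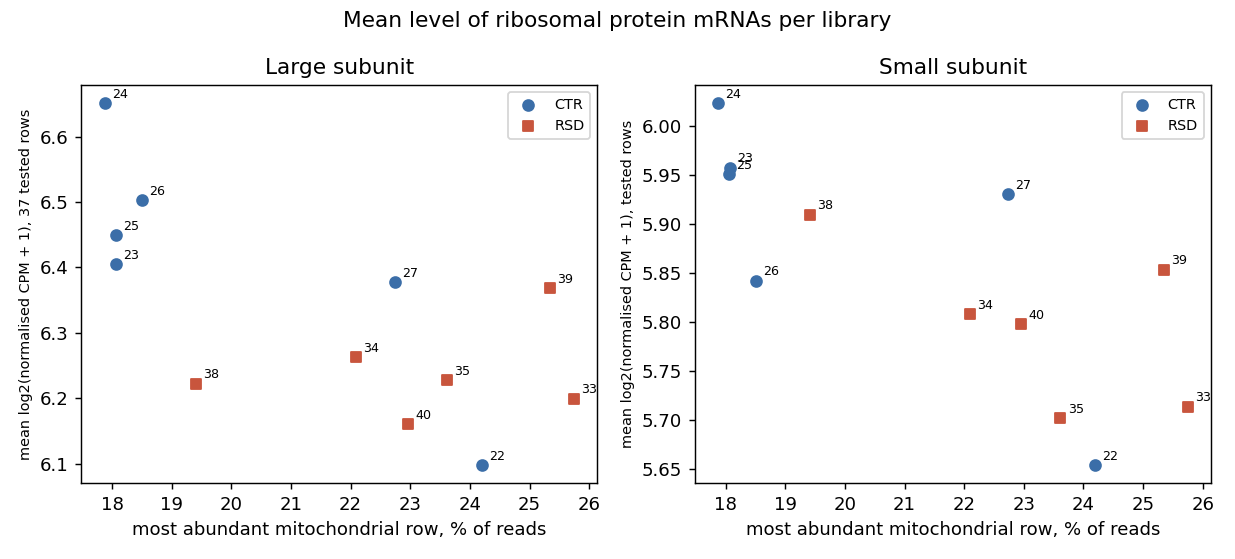
Mean log2(normalised CPM + 1) per library (y axis) of the tested large-subunit rows (left) and small-subunit rows (right) against the percent of reads in the most abundant mitochondrial row (x axis), CTR as blue circles, RSD as red squares, labelled by library number. The 4 controls with a share of 17.9% to 18.5% have the highest large-subunit means, and CTR 22, at 24.2%, has the lowest. Among the RSD libraries, RSD 39, at 25.3%, has the highest large-subunit mean, and RSD 38 has the lowest share.

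Beside the large subunit, the 23 tested small-subunit rows had a median log2 fold change of −0.07, with 14 below 0 and 1 past an unadjusted p under 0.05 or the adjusted threshold, Rps23 (34.7 ± 14.8 and 15.3 ± 4.80 normalised CPM, limma adjusted p = 0.0416). With 1 library left out, 0 genes at all were called without CTR 23, CTR 24, CTR 27, RSD 34 or RSD 40, so Rps23 was not called there, nor with no filter on low values or with either covariate. Whether the subunits differ was not tested. Of 7 tested rows of large-subunit paralogs and pseudogenes 0 passed the adjusted threshold. At an unadjusted limma p under 0.05, 4 of the 7 were lower, or 57.1%, beside 4.47% of all genes. Among them were Rpl22l1 (log2 fold change −0.45), Rpl31l4 (−0.37) and Rpl5l1 (−0.50). Rpl6-ps1 was higher (0.30, 79.2 ± 15.7 and 96.1 ± 8.35 normalised CPM), beside 3.89% of all genes higher at that level. The row of Rpl6 itself averaged only 1.76 normalised CPM. Whether the Rpl6-ps1 row holds reads of Rpl6 was not tested.

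Other mRNAs with a TOP tract gave 13 tested genes, 9 below 0 with a median log2 fold change of −0.12, and 0 past the adjusted threshold. Eef2, the factor that moves the ribosome along the mRNA, measured 219 ± 36.7 and 172 ± 24.1 normalised CPM, with a log2 fold change of −0.35 (limma adjusted p = 0.432). Npm1, a nucleolar chaperone of ribosome assembly, measured 109 ± 3.44 and 89.6 ± 9.08 (−0.29, SE 0.10, limma adjusted p = 0.466), and Rack1, of the small subunit, 160 ± 18.4 and 184 ± 29.4. Of 35 tested assembly factors of the large subunit 19 lay below 0, with a median of −0.01, and 0 passed. Npm1 is counted in this list as well as among the TOP mRNAs. Ncl, nucleolin, measured 119 ± 7.67 and 102 ± 9.99, and Dkc1, which modifies ribosomal RNA, 47.7 ± 9.78 and 57.6 ± 11.3. Of 16 tested regulators of ribosome synthesis, 8 lay on each side of 0 (median 0.01) and 0 passed. Larp1, which binds TOP tracts, measured 13.7 ± 5.62 and 19.1 ± 4.17 normalised CPM, with a log2 fold change of 0.52 (limma adjusted p = 0.517).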

How the data were processed

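Gene expression was read from 1 table of the 12 libraries. The authors deposited CPM per gene, normalised to the reads of each library, with a mark for removal on some rows. Per the submitters' processing notes the tools were bcl2fastq, STAR 2.6.0a, HTSeq 0.9.1 and DESeq2 with the rn6 build, without roles. The mark stood on 12 member rows and not on 43. Low values were whole multiples of 1 step per library (0.268 to 0.485 CPM per read), which gave the reads behind them; 99.8% to 100% of values above 0 came out whole within 0.1 read. Each library is 1 rat, so p-values measure the spread between rats, and Wilson intervals cover counting error only. Of columns of other samples there were 0.

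Genes were kept with filterByExpr (minimum count 10). CPM was divided by TMM factors (0.914 to 1.12), and limma was run on log2(CPM + 1) over 7511 genes with an intensity trend, two-sided, with Benjamini-Hochberg adjustment. A log2(CPM + 1) fold change understates changes of low genes. For library measures and paralog shares the exact two-sided permutation test used all 924 splits. edgeR and DESeq2 on the recovered reads were alternatives, beside other factors, filters, pseudocounts, limma-voom, covariates and leaving out each library. The fits ran under R 4.3.3 with limma 3.58.1 for the test, edgeR 4.0.16 for factors and filter, DESeq2 1.42.0, and the sva package, version 3.50.0, for the surrogate variable. The limma step was tested on simulated data.

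The members, lists and role groups were chosen with earlier results of these data known. Named members were 12 fixed symbols, the 8 tested rows with the smallest p, the 3 most abundant, and the 3 with the largest and the 3 with the smallest spread within groups; up to 4 genes per list were those with the smallest p. Rpl4, Rpl26, Rpl29, Rpl30, Rpl7 and the untested rows were named after their values were seen, and the paralog shares and the tract search were also chosen then. Sequences and copy names are from RefSeq (GRCr8), matched by symbol; the table's IDs have no coordinates here. The values of 1 tested member are not reported here, though it is in all counts and medians.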

Additional observations from a re-analysis of the deposited data

Results flagged for a closer look

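In 46 combinations of a group and a result, 1 library stood apart from the other 5 in 5 cases, where chance flags about 1 in 20, or 2.3 of them. Some members were named for a small p or a large spread within groups, and rows share libraries. The 2.3 is therefore only a rough guide. Each value below is how far that library lies from its neighbour, divided by the whole spread of its group. CTR 24 was the highest control for Rpl10 (0.728), Rpl36al (0.785) and Rpl19 (0.737). RSD 33 was the lowest RSD library for Rpl5 (0.791), and RSD 39 the highest for Rpl10 (0.64).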

How the results depend on the processing

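Under all 25 alternatives, 0 members passed adjusted p 0.05, and the smallest adjusted p of a named member was 0.111 (Rpl37a without CTR 22). The median log2 fold change stayed below 0 in each, from −0.21 to −0.12 over the fits that leave out 1 library and from −0.20 to −0.05 over the others. Members below 0 numbered 28 to 31 without 1 library and 22 to 36 otherwise, 36 being of 48 rows with no filter on low values. Without RSD 40 the median was −0.13, beside 0.01 over all genes, with 28 members below 0. There 7 members were at an unadjusted limma p under 0.05, all lower, beside 4.63% of all genes lower at that level. The direction turned for 3 named members with the mitochondrial row share as a covariate, Rpl3 (0.0032), Rpl23a (0.0021) and the second row of Rpl21 (0.032), all close to 0; the cause was not tested. Depth limits the rows of a few CPM, such as Rpl10a, with a 95% interval of −1.03 to 0.45. No paired analysis was possible because the groups share no replicate numbers.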
